A study of Mus musculus with 14 samples.

Results

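The cell cycle and proliferation genes of the newborn mouse brain are 42 genes chosen by name, and every listed symbol had a row among the 17927 genes of the deposited counts. They comprise 17 S-phase genes, which license, drive or feed DNA replication, and 25 genes classed as mitotic, which act mainly from G2 to cytokinesis. Plk4 was counted with the mitotic genes although it starts centriole duplication rather than a step of mitosis. RNA-SEQ was carried out on whole brains taken at postnatal day 2 (P2), a stage at which Capn15, a protease of the calpain family, is expressed across the brain. Of the 14 brains, 7 were WT and 7 were Capn15 KO. The methods name a Capn15(lacZ-Neo) line and a floxed Capn15 line, both made with C57BL/6J mice, and the sources used here do not say which of them gave the KO brains. None of the mice was treated. The column names of the counts carry a letter from A to F, with 2 brains for each letter and 4 for B. The names do not say what the letter stands for. It was read as the litter because the methods give 6 litters. Each litter so read held as many WT as KO brains. Of the WT brains 2 were female and 5 male, and of the KO brains 4 were female and 3 male. Each pair of same-numbered WT and KO brains came from 1 litter, and in all pairs except that of litter F the partners were of opposite sex. In litter B, with 4 brains, only the numbers decide which WT and KO brains are set side by side. The labels give neurons as the cell type, while the methods describe whole brains, and the defining genes of choroid plexus, microglia, endothelium, meninges and red blood cells that the counts hold were above 0 in every library. The labels put all brains in 1 batch, and do not tie litters to a day of dissection.

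Libraries held between 37620954 and 70910163 counts, and the lowest count of any of the 42 genes in any library was 138. Values are given as CPM, the counts of a gene scaled to a common library size with edgeR's TMM factors. Capn15 itself was at 25 to 27.3 CPM in WT replicates 1 to 6 and at 12.2 to 14.5 CPM in KO replicates 1 to 6. The pair of litter F went against its labels, with 18.7 CPM in the brain called WT (replicate 7) and 20.2 CPM in the one called KO (replicate 7). For that reason the direction counts, class medians and numbers of genes called between genotypes are also given without litter F. Values of single genes include litter F unless stated. The sex on all 14 labels matched the level of Xist. Mitochondrial genes took between 1.96% and 2.43% of the counts.

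A cell that leaves G1 first switches on genes of the replication machinery, under E2F transcription factors that cyclin E and Cdk2 help to release. Genes for chromosome condensation, the spindle and cell division follow in G2 and are driven by FoxM1, B-Myb and NF-Y from promoters that carry a cell cycle genes homology region (CHR) and CCAAT boxes. In the newborn mouse brain dividing cells are found mainly in the external granule layer of the cerebellum, in the ventricular and subventricular zones, and among glial precursors, while most neurons have left the cycle.

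The promoters were read for the letters of these motifs, and 6 windows are shown, from genes that changed together between litters and from genes that stood outside that pattern. RefSeq promoter windows (250 bases before and 50 after the start, GRCm38.p6) were matched by symbol for 34 of the 42 genes, 14 of them S-phase and 20 mitotic. The letters searched on both strands were TTTGAA for the CHR, CCAAT for the CCAAT box, and TTTCGCGC, TTTGGCGC, TTTCCCGC or TTTGCCGC for the E2F site, and overlaps between motifs were allowed. The CHR letters stood in the windows of 14 of 20 mitotic and 2 of 14 S-phase genes, against 17.9% of all 32851 windows of this length. The CCAAT letters stood in those of 17 of 20 and 10 of 14, against 37.4%. Both were held by 14 of 20 and 2 of 14, against 6.95%. An E2F site stood in 1 of 20 and 6 of 14, against 2.26%. A gene with more than 1 window was counted if any of them held the letters, which gave Uhrf1, Prc1 and Mcm7 more chances than the others. In the sequences capitals mark these motifs, read 5′ to 3′ on the strand of the gene. Mki67 (chr7:135716330-135716629, minus strand), Cdk1 (chr10:69352863-69353162, minus strand) and Ube2c (chr2:164769679-164769978, plus strand) are mitotic genes that hold the CHR and CCAAT letters. Mcm6 (chr1:128359656-128359955, minus strand) and Mcm7 (chr5:138171834-138172133, minus strand, the more upstream of its windows) are S-phase genes with E2F sites. Plk4 (chr3:40799701-40800000, plus strand), the centriole gene counted with the mitotic class, has none of these letters in its window. A match is a description of the letters and was not tested as a binding site.
Mki67: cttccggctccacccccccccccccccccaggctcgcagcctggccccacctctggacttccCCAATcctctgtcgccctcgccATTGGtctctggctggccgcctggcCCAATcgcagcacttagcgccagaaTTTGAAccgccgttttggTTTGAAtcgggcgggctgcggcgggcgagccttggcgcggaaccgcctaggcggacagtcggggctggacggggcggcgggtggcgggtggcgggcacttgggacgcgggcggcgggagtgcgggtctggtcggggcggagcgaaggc
Cdk1: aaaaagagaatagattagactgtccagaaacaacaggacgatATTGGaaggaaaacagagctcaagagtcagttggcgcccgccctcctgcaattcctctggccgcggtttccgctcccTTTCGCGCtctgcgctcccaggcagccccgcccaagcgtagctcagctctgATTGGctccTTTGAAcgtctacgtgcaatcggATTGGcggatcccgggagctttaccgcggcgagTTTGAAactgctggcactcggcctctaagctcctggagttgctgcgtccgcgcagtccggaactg
Ube2c: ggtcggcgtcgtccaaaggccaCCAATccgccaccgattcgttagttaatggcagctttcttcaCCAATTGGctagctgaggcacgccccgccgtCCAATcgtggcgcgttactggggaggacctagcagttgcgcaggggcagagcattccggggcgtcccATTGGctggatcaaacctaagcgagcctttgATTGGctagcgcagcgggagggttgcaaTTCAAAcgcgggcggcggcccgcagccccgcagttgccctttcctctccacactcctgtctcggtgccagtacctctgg
Mcm6: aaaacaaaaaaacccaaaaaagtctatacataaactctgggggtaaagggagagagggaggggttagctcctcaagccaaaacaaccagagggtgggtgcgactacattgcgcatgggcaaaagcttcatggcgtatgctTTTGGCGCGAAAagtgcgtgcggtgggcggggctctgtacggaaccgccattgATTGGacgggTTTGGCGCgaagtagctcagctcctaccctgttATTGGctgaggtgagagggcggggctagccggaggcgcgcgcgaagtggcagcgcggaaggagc
Mcm7: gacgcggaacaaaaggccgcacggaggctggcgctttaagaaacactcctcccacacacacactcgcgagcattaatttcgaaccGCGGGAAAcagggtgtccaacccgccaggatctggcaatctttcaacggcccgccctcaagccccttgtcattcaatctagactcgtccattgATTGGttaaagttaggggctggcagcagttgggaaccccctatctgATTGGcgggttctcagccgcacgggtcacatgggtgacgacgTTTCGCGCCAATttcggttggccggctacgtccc
Plk4: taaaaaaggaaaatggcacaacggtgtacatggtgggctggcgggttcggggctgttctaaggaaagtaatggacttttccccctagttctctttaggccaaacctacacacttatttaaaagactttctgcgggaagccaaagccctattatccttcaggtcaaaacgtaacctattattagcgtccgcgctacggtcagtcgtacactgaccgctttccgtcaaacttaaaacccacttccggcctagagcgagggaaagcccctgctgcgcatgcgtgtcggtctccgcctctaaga

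Levels between genes were compared as CPM per kb of exon, with exon length taken as the union over all annotated transcripts in GENCODE M21, which makes genes with long rare transcripts look lower. On this scale Pcna, the sliding clamp of the replication fork, stood highest, with means of 29.4 ± 1.30 in the 7 WT and 28.99 ± 1.28 in the 7 KO brains (SD). Mcm6, a subunit of the replicative helicase, followed at 12.5 ± 0.669 and 11.9 ± 0.819, and Rrm2, the small subunit of ribonucleotide reductase, at 12.1 ± 1.08 and 12.2 ± 1.22. Mcm6, Rrm2 and Mcm7 (11.3 ± 0.733 in WT) did not differ beyond their spread. Top2a, the topoisomerase that untangles sister chromatids, was the highest mitotic gene at 10.4 ± 1.64 in WT. Per kb of exon the 6 subunits of the MCM ring, which assemble in equal number, were not at equal levels. They ran in WT from Mcm6 through Mcm7, Mcm4 (9.97 ± 0.563), Mcm5 (7.87 ± 0.452) and Mcm3 (5.78 ± 0.806) to Mcm2 (4.07 ± 0.278). The last place of Mcm2 depends on its exon length of 6956 bases, the longest of the 6. In CPM Mcm2 averaged 28.3 in WT, above Mcm3 at 21.7. At the low end were Cdc6, which loads that ring onto origins (0.913 ± 0.0960 in WT), Gins2, a subunit of the active helicase (1.24 ± 0.155), and Kif23, a kinesin of the spindle midzone (1.27 ± 0.160). Gins2 and Kif23 did not differ beyond their spread. The highest brain exceeded the lowest by 1.12 to 1.67-fold among S-phase genes (median 1.40) and by 1.26 to 1.92-fold among mitotic genes (median 1.61), and these ranges overlapped.

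**Figure D1:**
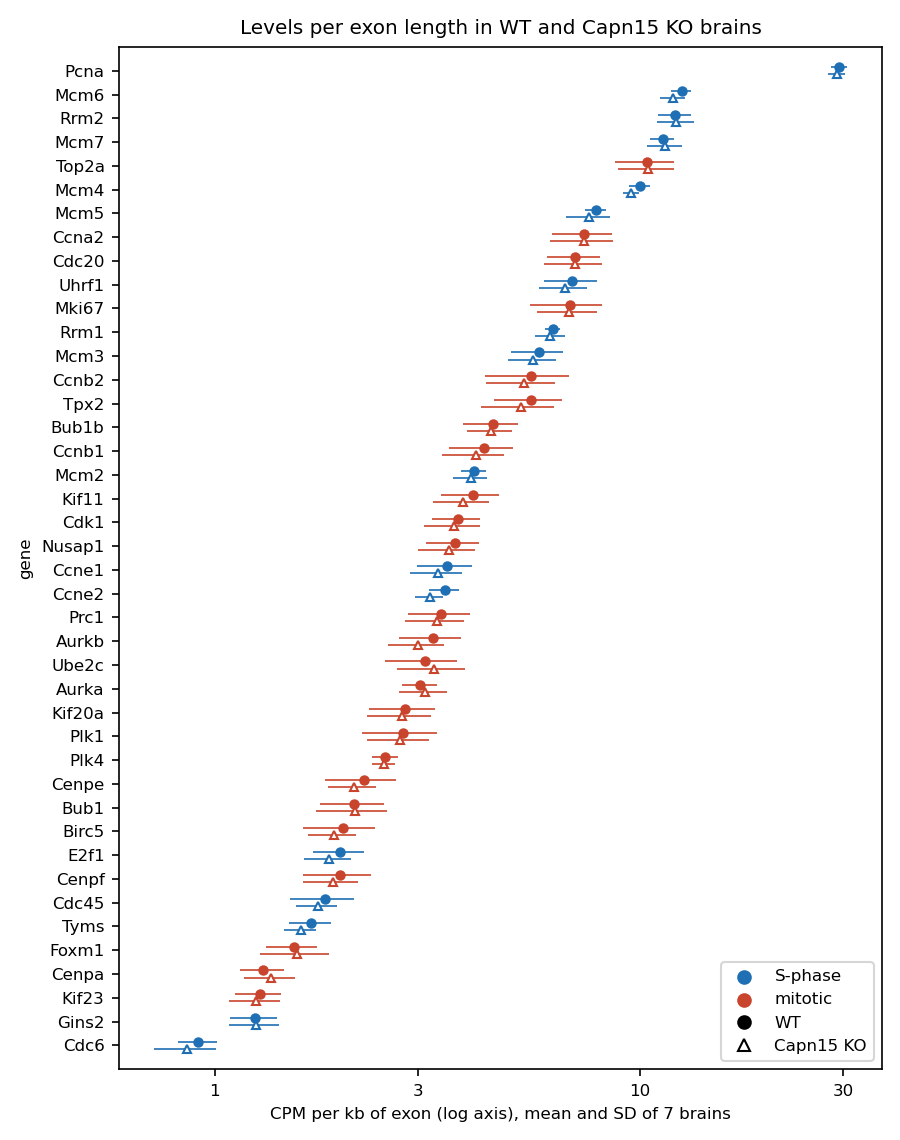
Level of each of the 42 genes as CPM per kb of exon (log axis), mean and SD over 7 WT brains (filled circles) and 7 Capn15 KO brains (open triangles), S-phase genes in blue and mitotic genes in red. Pcna stands alone at 29.4 in WT, the SD bars of WT and KO overlap for each gene, and they are wide for mitotic genes such as Mki67 and Ccnb2.

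The first comparison asked whether the loss of Capn15 changed these genes. None of the 42 genes was called between WT and KO by edgeR's quasi-likelihood test with litter and sex in the model at a Benjamini-Hochberg FDR of 0.05, against 0.00558% of all genes (1 gene). DESeq2, which called 0.0948% of all genes, and the likelihood ratio test of edgeR, which called 0.19%, also called 0 of the 42. At an unadjusted p under 0.05 the quasi-likelihood test had 2 of the 42, against 5.14% of all genes. The WT and KO ranges overlapped in every gene, and by a two-sided exact permutation test over all regroupings of the 14 brains into 7 and 7 the lowest p was 0.0769, with 0 of 42 under 0.05. Neither count was made over all genes. The ranges of Capn15 overlapped too, through litter F, so overlap alone does not show that a gene was unchanged. By the same permutation test Capn15 had a p of 0.00117. This test does not use litter or sex, so the differences between litters stay in its spread. In whole brain, fewer cells of a type and less RNA per cell cannot be told apart. The quasi-likelihood p-values are set against the spread between these brains that is left after the litter and sex terms. Those of the permutation test are set against their full spread.

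The estimates were small, from a log2 fold change (KO minus WT) of -0.14 in Aurkb to 0.063 in Ube2c, and most were below 0. The estimate was below 0 in 36 of the 42 genes, 16 of 17 S-phase and 20 of 25 mitotic, against 48.6% of all genes and 50.1% of the 9646 genes within the same CPM range. Its median was -0.069 over the S-phase genes and -0.034 over the mitotic genes, against 0.0016 over all genes. These genes vary together from brain to brain, so the count of directions is not 42 separate observations. It rested on single litters: without either brain of litter C (WT replicate 4 or KO replicate 4) 20 of 42 estimates were below 0, 7 of 25 among mitotic genes, and the mitotic median turned to 0.036. Without either brain of litter D (WT replicate 5 or KO replicate 5) all 42 were below 0, and the medians were -0.12 for S-phase and -0.10 for mitotic genes. Without litter F 35 of 42 were below 0, with medians of -0.061 and -0.030 and 0 genes of the 42 called.

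**Figure D2:**
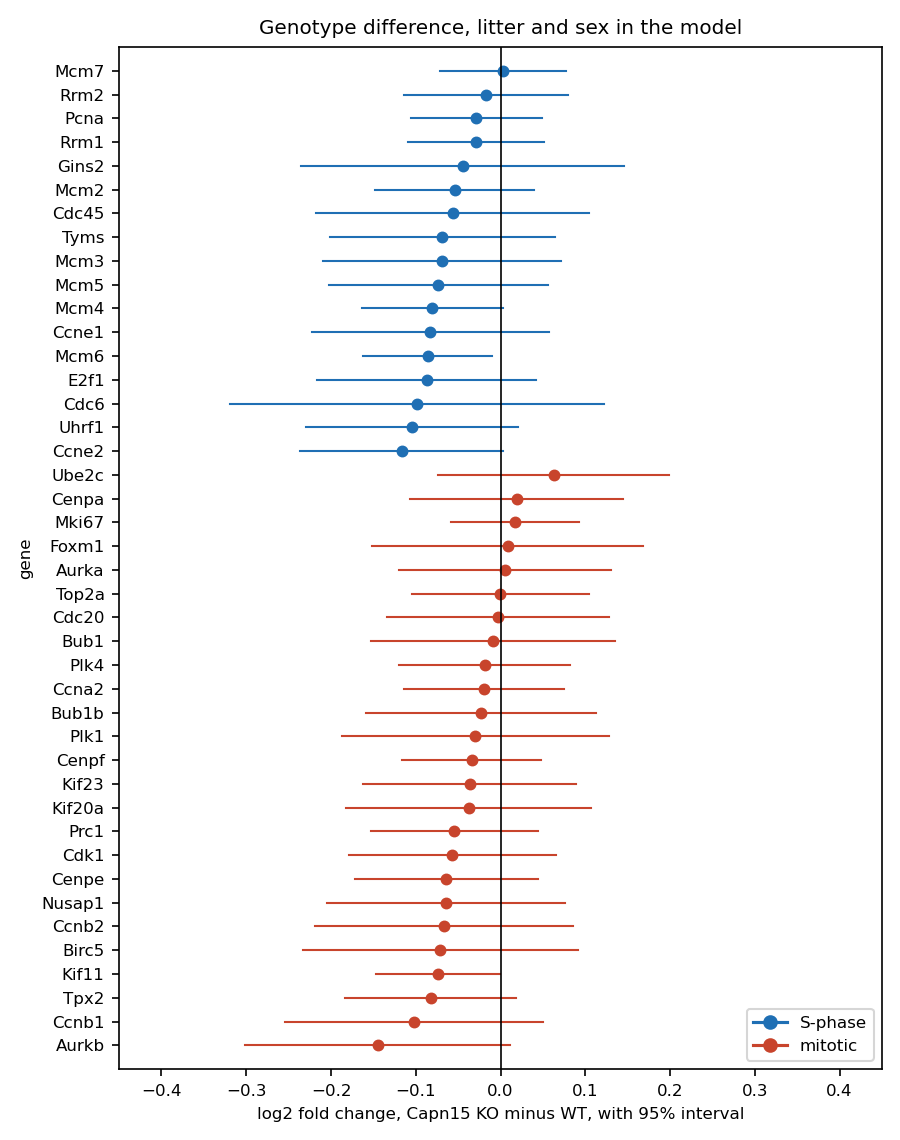
Log2 fold change of Capn15 KO minus WT with its 95% interval for each of the 42 genes, from the model with litter and sex over 14 brains, S-phase genes in blue above and mitotic genes in red below. The points lie between -0.14 and 0.063, and only the intervals of Mcm6 and Kif11 do not reach 0 before adjustment.

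Among the helicase genes, Mcm6 had the smallest unadjusted p of the 42. It ran from 52.4 to 60.9 CPM in WT brains (median 59.5) and from 51.1 to 63.3 CPM in KO brains (median 55.3), and a KO brain of litter A was the highest of all. The log2 fold change was -0.086 ± 0.035 (SE), with an unadjusted p of 0.0300 and an FDR of 0.933 by edgeR's quasi-likelihood test. Mcm4, another subunit of the ring, was at 31.9 to 37.5 CPM in WT (median 36.5) and 32.2 to 36.1 CPM in KO brains (median 34.4), lower in the KO brain in 6 of 7 pairs, with a log2 fold change of -0.081 ± 0.039 (SE). Mcm2 lay at 26.4 to 31.8 CPM in WT (median 27.5) and 23.4 to 31.1 CPM in KO brains (median 28.1). Its KO median was the higher, and the KO brain was lower in 3 of 7 pairs. Mcm5 lay at 29.1 to 33.6 CPM in WT (median 31.4) and 25.4 to 33.8 CPM in KO brains (median 32.1). For Mcm2 and Mcm5 the lowest brain was KO replicate 4, and the fitted differences were -0.054 ± 0.044 (SE) and -0.074 ± 0.060 (SE). Mcm3, Mcm7, Cdc6, Cdc45 and Gins2 had fitted differences between -0.099 (Cdc6) and 0.0031 (Mcm7).

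Pcna was the steadiest of the 42, at 65.8 to 73.3 CPM in WT (median 72.1) and 65.5 to 73.0 CPM in KO brains (median 70.4). Its log2 fold change was -0.028 with a 95% interval from -0.11 to 0.049. Rrm2 lay at 28.5 to 36.8 CPM in WT (median 34.1) and 29.6 to 40.1 CPM in KO brains (median 33.6), with a log2 fold change of -0.018 ± 0.045 (SE). Uhrf1, which carries DNA methylation across the fork, was at 23.0 to 34.6 CPM in WT (median 30.5) and 23.1 to 34.4 CPM in KO brains (median 29.2). The fitted difference of Uhrf1 was -0.10 ± 0.058 (SE). Rrm1, the large subunit of ribonucleotide reductase, and Tyms, which makes thymidylate, had fitted differences of -0.029 and -0.069. Reads of Pcna and Tyms, and of Ccnb1 and Ccnb2 below, could be shared with pseudogenes named after them.

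Of the G1/S regulators, Ccne2 had the lowest permutation p of the 42. This gene for a cyclin E was at 10.6 to 13.4 CPM in WT (median 11.8) and 9.78 to 12.6 CPM in KO brains (median 11.1). The mean was 12.1 ± 1.004 CPM in WT and 11.2 ± 0.835 CPM in KO (SD, n = 7 each), with an exact permutation p of 0.0769. The fitted log2 fold change was -0.12 ± 0.056 (SE), and its FDR by edgeR's quasi-likelihood test was 0.972. Ccne1, the other cyclin E gene, was at 6.66 to 10.7 CPM in WT (median 9.79) and 7.68 to 11.1 CPM in KO brains (median 8.54), and E2f1 at 5.09 to 7.51 CPM in WT (median 6.25) and 5.13 to 7.25 CPM in KO brains (median 5.57). WT and KO overlapped in both genes. The fitted differences were -0.083 ± 0.065 (SE) for Ccne1 and -0.087 ± 0.060 (SE) for E2f1. Exons of Ccne2 overlap those of Ints8 on the other strand, and the strand setting of the counting is not given in the sources used here.

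Among the mitotic kinases and cyclins, Cdk1, the kinase that starts mitosis, was at 15.4 to 22.1 CPM in WT (median 17.4) and 14.6 to 22.9 CPM in KO brains (median 17.9). Ccnb1, the cyclin B that activates it, was at 13.9 to 21.5 CPM in WT (median 17.9) and 14.002 to 22.7 CPM in KO brains (median 16.6). In both genes the brains of litter A or F were highest in each genotype. The fitted differences were -0.057 ± 0.057 (SE) and -0.10 ± 0.071 (SE), and both turned above 0 without a brain of litter C. Aurkb, the kinase of the chromosomal passenger complex, had the largest fitted difference of the 42. It was at 7.49 to 12.3 CPM in WT (median 9.60) and 6.82 to 10.6 CPM in KO brains (median 8.79), with the lowest value in KO replicate 4 and the highest in WT replicate 1. The log2 fold change was -0.14 ± 0.073 (SE), with an FDR of 0.986 by edgeR's quasi-likelihood test. It lay between -0.23 and -0.041 when each brain was left out in turn, the weakest without a brain of litter C. Plk4, which starts centriole duplication, was at 15.4 to 19.0 CPM in WT (median 17.3) and 15.1 to 18.1 CPM in KO brains (median 17.4). Ccna2, Ccnb2, Aurka, Plk1 and Foxm1 had fitted differences between -0.067 (Ccnb2) and 0.0084 (Foxm1).

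Of the chromosome and spindle genes, Mki67, which coats mitotic chromosomes, was at 53.8 to 91.8 CPM in WT (median 64.8) and 56.1 to 85.5 CPM in KO brains (median 63.7). Its means were 68.7 ± 13.3 CPM and 68.5 ± 11.0 CPM (SD, n = 7 each), and the log2 fold change was 0.017 with a 95% interval from -0.059 to 0.092. Top2a was at 73.1 to 115 CPM in WT (median 91.4) and 79.3 to 118 CPM in KO brains (median 88.2), with an interval from -0.10 to 0.10. In neither gene did the genotypes separate, and the same litters held the highest brain of each. Cenpa, the histone variant of centromeres, was at 6.20 to 8.79 CPM in WT (median 7.49) and 5.89 to 9.39 CPM in KO brains (median 8.02). Kif11, the motor that pushes spindle poles apart, was at 24.0 to 37.2 CPM in WT (median 29.98) and 23.7 to 35.6 CPM in KO brains (median 28.4). It was lower in the KO brain in 6 of 7 pairs, a count that depends on the pairing within litter B. Its log2 fold change was -0.074 ± 0.034 (SE), with an unadjusted p of 0.0485 and an FDR of 0.969 by edgeR's quasi-likelihood test. Kif23 was at 8.21 to 11.97 CPM in WT (median 10.2) and 8.33 to 11.3 CPM in KO brains (median 9.70). Cenpe and Cenpf of the kinetochore, Kif20a, Prc1, Tpx2 and Nusap1 of the spindle and midzone, and Birc5 of the passenger complex had fitted differences between -0.083 (Tpx2) and -0.034 (Cenpf). The checkpoint and anaphase-promoting complex genes Cdc20, Bub1, Bub1b and Ube2c lay between -0.023 (Bub1b) and 0.063 (Ube2c).

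The second comparison asked how far the genes differed between litters once genotype and sex were in the model. By the F test over the litter terms of edgeR's quasi-likelihood fit, 31 of the 42 genes changed between litters at an FDR of 0.05, against 29.6% of all genes and 36.9% of genes within the same CPM range. The mitotic genes made up 24 of these 31, all but Plk4, which is 96.0% of the class. Of the S-phase genes 7 of 17 were called (41.2%), near the 36.9% of genes within the same CPM range. They were Mcm3, Mcm7, Cdc45, Rrm2, Uhrf1, Ccne1 and E2f1. The likelihood ratio test of edgeR called 24 mitotic and 8 S-phase genes, with 6711 of all 17927 genes. DESeq2 called 23 and 5, with 5129 of all genes. The range of the fitted litter values, highest minus lowest litter on the log2 scale, had a median of 0.53 over mitotic genes (0.22 to 0.69) and of 0.28 over S-phase genes (0.10 to 0.51), against 0.29 over all genes and 0.23 over those within the same CPM range.

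**Figure D3:**
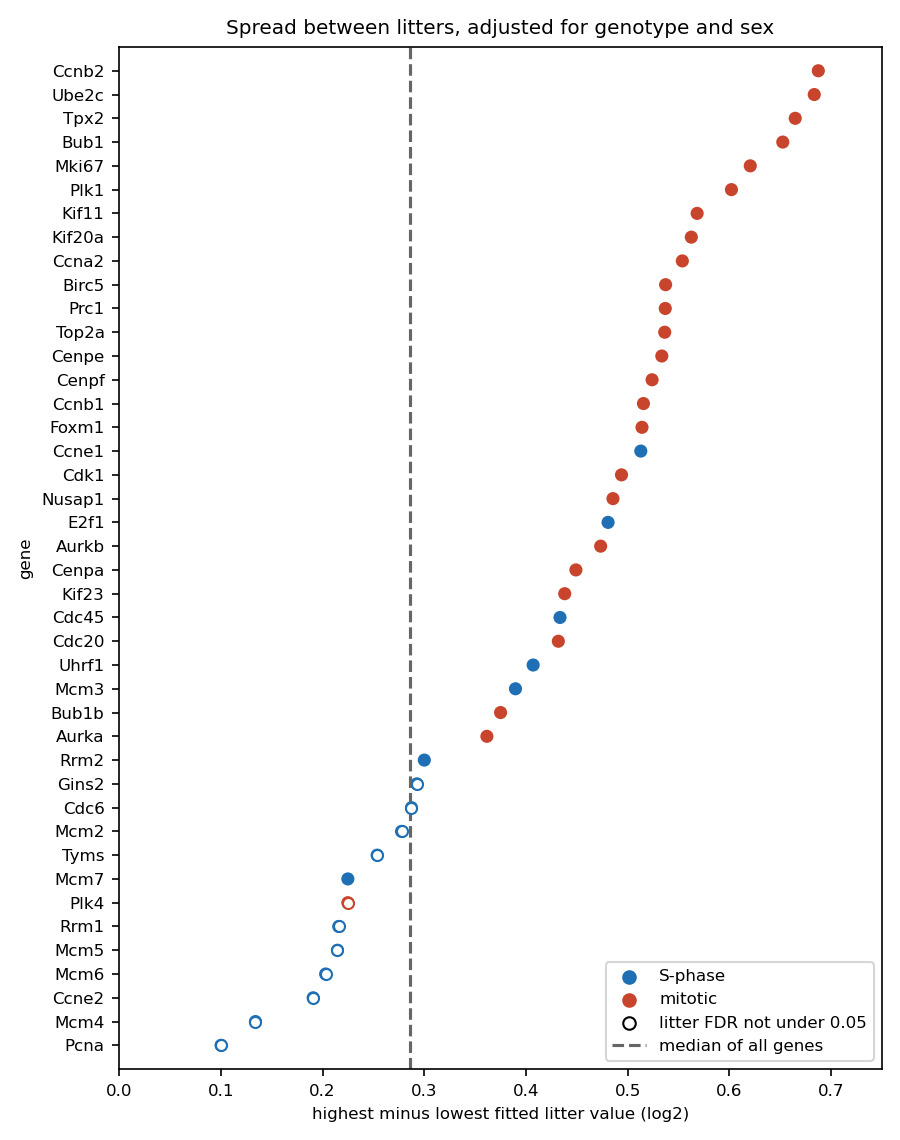
Highest minus lowest fitted litter value (log2) of each of the 42 genes, adjusted for genotype and sex, mitotic genes in red and S-phase genes in blue, filled where the litter FDR was under 0.05. Mitotic genes fill the upper end up to 0.69 (Ccnb2), Pcna is lowest at 0.10, and the dashed line is the median of all genes at 0.29.

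The direction was shared. Among the called mitotic genes litter A was highest in 19 and litter F in 5, and litter B was lowest in 20. Of all genes, counted once per symbol, 5297 were called. In these litter A was highest in 866 and litter F in 1246, and litter B was lowest in 2623. Litter A highest with litter B lowest occurred in 16 mitotic and 3 S-phase genes, against 4.07% of all genes. Litters A and B are singled out here after their values were seen. Both brains of litter A were above all 4 brains of litter B in 25 of 25 mitotic and 10 of 17 S-phase genes, against 26.4% of all genes. Both brains of litter F were above all 4 of litter B in 24 of 25 and 4 of 17, against 25.5%. The 4 brains of litters A and F were all above the 10 brains of the other litters in 16 of 25 mitotic and 0 of 17 S-phase genes, against 2.47% of all genes. Each of litters A and F holds 1 brain labelled WT and 1 labelled KO, and litter B holds 2 of each.

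**Figure D4:**
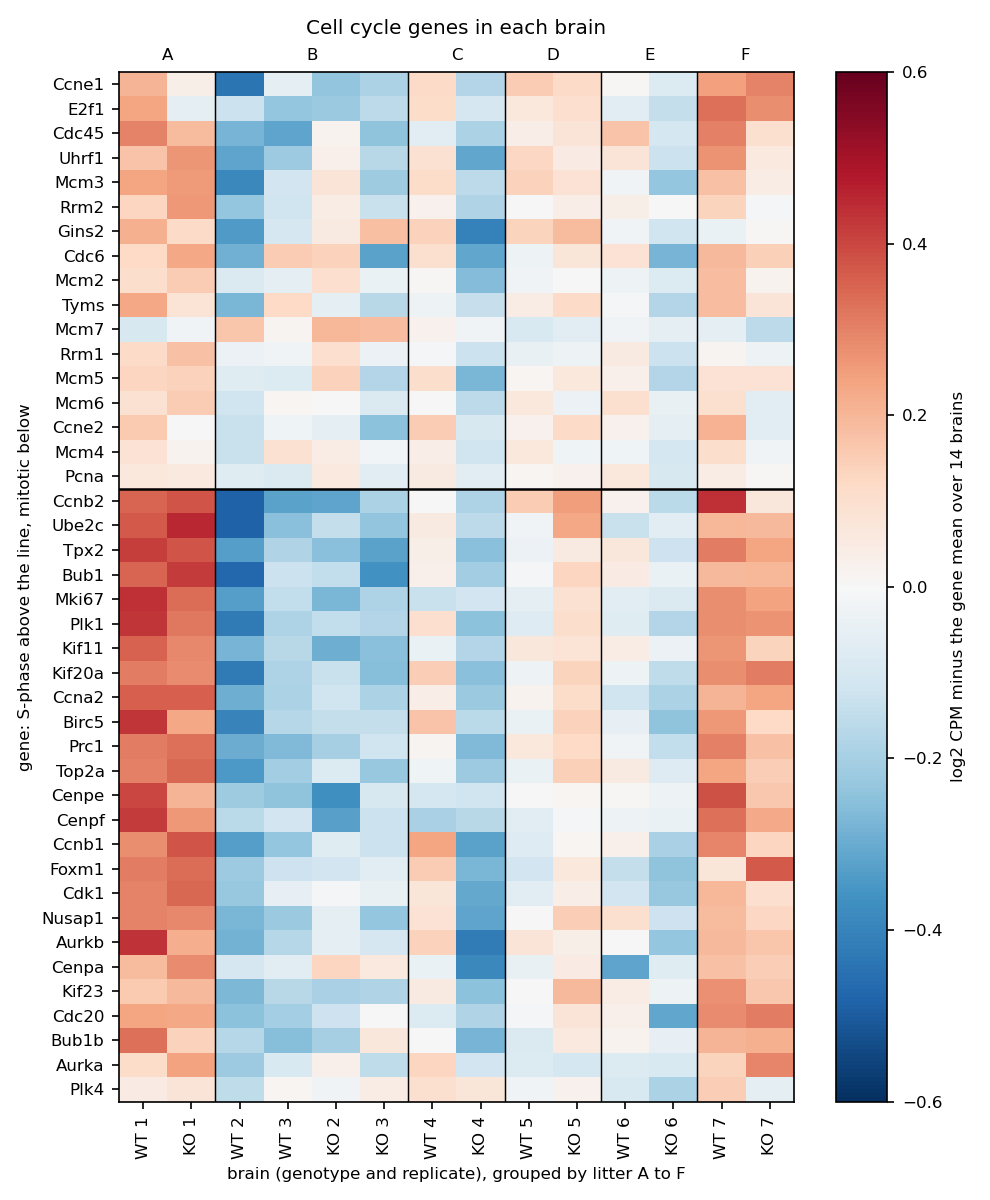
Log2 CPM of each of the 42 genes in each of the 14 brains minus the mean of that gene over the brains, brains ordered by litter A to F, S-phase genes above the line and mitotic genes below. Litters A and F are high and litter B low over nearly all mitotic genes, the S-phase genes are paler, and Mcm7 runs the other way.

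Mki67 shows the pattern at high depth. Its 2 brains of litter A were at 91.8 and 85.5 CPM and those of litter F at 82.1 and 80.1 CPM, while the 4 brains of litter B lay between 53.8 and 61.1 CPM and the 6 others between 61.8 and 72.2 CPM. The brains of litters A and F did not overlap those of any other litter, and the litter FDR was 3.9e-05 by edgeR's quasi-likelihood test. Top2a averaged 116 CPM in litter A, 106 CPM in litter F and 80.1 CPM in litter B. Kif11, with the FDR next to that of Mki67 (5.4e-05), averaged 36.4, 33.4 and 24.6 CPM in the same litters. The widest fitted range was that of Ccnb2, a cyclin B, at 0.69, with means of 10.5 CPM in litter A and 6.53 CPM in litter B. Ube2c, which supplies ubiquitin to the anaphase-promoting complex, was close behind at 0.68 (10.9 and 6.76 CPM), followed by Tpx2, a spindle assembly factor and activator of Aurora A, at 0.66 (32.7 and 20.6 CPM).

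The ranges of the roles within mitosis overlapped. The cyclins and kinases had fitted ranges from 0.22 (Plk4) to 0.69 (Ccnb2), the checkpoint and anaphase-promoting complex genes from 0.38 (Bub1b) to 0.68 (Ube2c), the centromere and chromosome genes from 0.45 (Cenpa) to 0.62 (Mki67), and the spindle genes from 0.44 (Kif23) to 0.66 (Tpx2). Foxm1, the transcription factor of the G2 genes, averaged 11.0 CPM in litter A, 10.3 CPM in litter F and 8.05 CPM in litter B, with a litter FDR of 0.0253 by edgeR's quasi-likelihood test. In Cdk1 and Foxm1 litter E was the lowest after adjustment, and in Cenpa and Bub1b litter C. Plk4, the centriole gene of the class, stood outside, with brains of all litters between 15.1 and 19.0 CPM and an FDR of 0.251.

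Among S-phase genes the widest fitted ranges were those of 2 of the 3 G1/S regulators. Ccne1 had a fitted range of 0.51 and averaged 10.9 CPM in litter F, 9.84 CPM in litter A and 7.74 CPM in litter B, and E2f1 had a range of 0.48 with 7.38, 6.399 and 5.26 CPM. In both, litter F was above litter A. The remaining regulator, Ccne2, was not called (FDR 0.336 by edgeR's quasi-likelihood test). Of the helicase genes, Cdc45 (7.32 CPM in litter A, 5.39 CPM in litter B) and Mcm3 (25.1 and 19.1 CPM) followed the mitotic genes, and so did Rrm2 (38.4 and 31.1 CPM) and Uhrf1 (33.4 and 25.6 CPM). Mcm7 changed in the other direction. It averaged 55.4 CPM in litter B, 48.2 CPM in litter A and 46.7 CPM in litter F, all 4 brains of litter B were above both brains of litter A, and its FDR was 0.0178 by edgeR's quasi-likelihood test. The microRNA genes Mir25 and Mir93 lie within Mcm7, and its exons overlap those of Cops6 and Ap4m1 on the other strand. Overlap with exons on the other strand was also present in Cdc45, Gins2, Ccne2, Ccna2, Cdc20, Plk1, Kif20a, Nusap1, Prc1 and Ube2c. Exons of Top2a and Foxm1 overlap those of other genes on the same strand. Mcm2, Mcm4, Mcm5, Mcm6, Cdc6, Gins2, Pcna, Rrm1 and Tyms were not called, with fitted ranges from 0.10 (Pcna) to 0.29 (Gins2).

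The mean log2 CPM of each class was computed per brain as a description. The mitotic mean ran from 3.66 in WT replicate 2 of litter B to 4.27 in WT replicate 1 of litter A, a span of 0.61, and the S-phase mean from 4.09 to 4.43 in the same brains, a span of 0.33. Litter A exceeded litter B by 0.49 in the mitotic and 0.22 in the S-phase mean. The mitotic minus the S-phase mean was -0.15 in litter A, -0.20 in litter F and -0.43 in litter B, with -0.34 to -0.36 in the other litters. The genotypes lay closer, with a mitotic mean of 3.97 ± 0.22 in WT and 3.94 ± 0.20 in KO brains and an S-phase mean of 4.30 ± 0.12 and 4.26 ± 0.11 (SD, n = 7 each). The KO brain had the lower mitotic mean in 4 of 7 pairs and the lower S-phase mean in 5 of 7. The S-phase count depends on the pairing within litter B. The widest gap within a pair was in litter C, where the KO brain was lower by 0.26 in the mitotic mean.

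**Figure D5:**
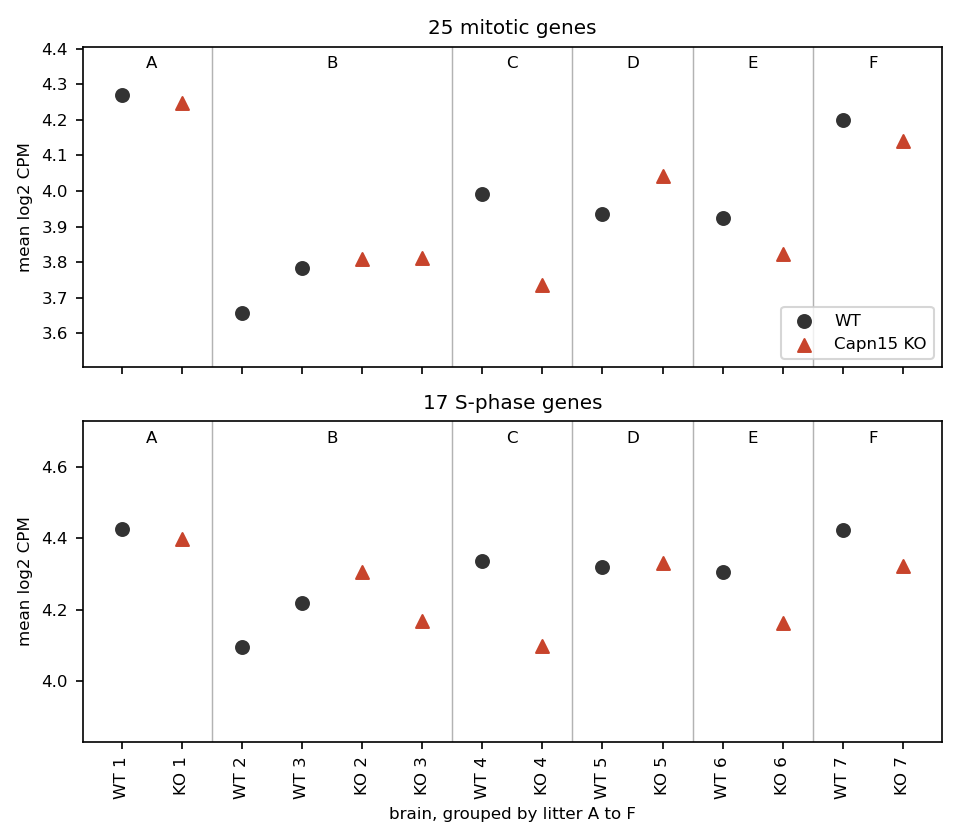
Mean log2 CPM of the 25 mitotic genes (upper panel) and the 17 S-phase genes (lower panel) in each of the 14 brains, grouped by litter A to F, WT as circles and Capn15 KO as triangles, both panels with axes of the same length. The mitotic mean is highest in litters A and F and lowest in WT replicate 2 of litter B, and the S-phase mean follows it over a narrower span.

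These litter counts rest on 2 brains per litter, 4 in litter B, and they fell when a litter was left out. Without litter B the F test of edgeR's quasi-likelihood fit called 6 mitotic and 0 S-phase genes, with 196 of all genes. Without litter A it called 14 and 3, and without litter F 22 and 4. For litters A and F the number over all genes is not set beside these counts, so they show only the fall. Leaving out litter B removes 4 of the 14 brains and the others 2, so the values of litter B and the smaller number of brains cannot be told apart. What the brains of a litter shared besides their parents cannot be told apart, since the labels record nothing else by litter. Total counts overlapped between litters, at 43181055 to 46670351 in A, 37620954 to 52159441 in B and 37885377 to 57422382 in F.

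Other genes of the same pathways, listed by name, were set beside the 42. Of 50 further mitotic genes 41 (82.0%) changed between litters, and both brains of litter A were above all of litter B in 45. Over all genes these shares were 29.6% and 26.4%. The smallest FDR among them by edgeR's quasi-likelihood test was that of Aspm, a spindle pole protein needed for brain size, at 7.2e-05 with a fitted range of 0.62. Of 38 further replication genes 12 (31.6%) changed, close to the 29.6% of all genes, and litter A was above B in 15. Chaf1b and Rfc3, for chromatin assembly and clamp loading, were highest in litter B and lowest in litter F, as Mcm7 was, while Atad2, a chromatin ATPase, was highest in F and lowest in B. Upstream of S phase, 5 of 9 G1 cyclin and CDK genes changed, with Ccnd1 highest in litter F and lowest in B and Cdk4 the reverse. Of 13 CDK inhibitor and exit genes 9 changed. Among these Cdkn1b and Cdkn1c, inhibitors that hold cells out of the cycle, were highest in litter B and lowest in litter A, whereas Cdkn2c was highest in A and lowest in B. Of 18 pocket protein, E2F and DREAM genes 4 changed. Between genotypes 0 genes of these lists were called. Estimates were below 0 in 36 of the 50 mitotic and 24 of the 38 replication genes, against 48.6% of all genes.

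Markers of the cell types that divide in the newborn brain did not all follow. Of all genes 29.6% changed between litters, and 36.9% of those within the CPM range of the 42. In 26.4% of all genes both brains of litter A were above all of litter B, and in 25.4% below. All 6 oligodendrocyte precursor markers changed between litters with litter B lowest, against 14.6% of all genes. Both brains of litter A and of litter F were above all of litter B in 6 of 6 markers. Their summed level was 414 to 442 CPM in litter A, 413 to 428 CPM in litter F and 283 to 314 CPM in litter B. Gpr17, a receptor of committed precursors, had the widest range of them at 1.43, and Pdgfra, the receptor of early precursors, the narrowest at 0.29. Of 13 neural stem and progenitor markers 10 changed, and both brains of litter A were above all of litter B in 3 and below in 6. Eomes, a marker of intermediate neuronal progenitors, was highest in litter B and lowest in litter A, with a range of 1.45. The 3 with litter A above were Fabp7, Slc1a3 and Egfr. The summed level of the 13, in which Fabp7 and Slc1a3 weigh most, was 1811 to 1821 CPM in litter A and 1624 to 1774 CPM in litter B. Their mean log2 CPM, each gene centred on its own mean, was -0.054 in litter A and 0.092 in litter B. Of 11 markers of cerebellar granule precursors 4 changed (36.4%, near the share of genes within the CPM range), with litter A above B in 3 and below in 5. Their summed level was 476 to 483 CPM in litter A, 517 to 566 CPM in litter B and 472 to 531 CPM in litter F. Of 12 markers of postmitotic neurons 6 changed, with both brains of litter A above all of litter B in 7 and below in 2. Slc17a7, the vesicular glutamate transporter of cortical neurons, was at 93.6 and 85.0 CPM in litter A, 85.1 and 105 CPM in litter F and 34.7 to 49.0 CPM in litter B, with a litter FDR of 0.00019 by edgeR's quasi-likelihood test. Red blood cell markers were lowest in litter D (31.2 to 36.1 CPM) and highest in litter B (199 to 325 CPM), and all 7 measured changed. Microglia (4 of 9), endothelial (4 of 8), meningeal (4 of 8) and choroid plexus markers (5 of 8) changed in part, and the endothelial sum was 313 to 320 CPM in litter A and 247 to 286 CPM in litter B. Between genotypes 0 marker genes were called. By edgeR's quasi-likelihood test 6 of 8 choroid plexus markers had an unadjusted p under 0.05, against 5.14% of all genes. All 8 estimates were below 0, against 48.6% of all genes. Of the listed markers 4 for red blood cells have no row in the counts, none of the others was at 0 in any library, and their part in the differences of the 42 genes was not tested.

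The third comparison was between the sexes. None of the 42 genes was called by the sex term of edgeR's quasi-likelihood fit, against 0.0669% of all genes (12 genes), nor by DESeq2 or the likelihood ratio test. At an unadjusted p under 0.05 there were 2 of the 42, against 5.04% of all genes. Uhrf1 had a log2 difference (female minus male) of 0.16 ± 0.063 (SE), with an unadjusted p of 0.0261 and an FDR of 0.927 by edgeR's quasi-likelihood test, and Cenpa one of 0.15 ± 0.063 (SE) with 0.0351 and 0.927. The next smallest p-values were those of Mcm2, Ccnb1 and Rrm2, with differences of 0.090, 0.15 and 0.092. Estimates were above 0 in 36 of the 42 genes, against 51.6% of all genes, with a median of 0.042. The class means did not show this without the model, at 3.94 ± 0.17 in female and 3.97 ± 0.23 in male brains for mitotic genes and 4.28 ± 0.096 and 4.28 ± 0.13 for S-phase genes (SD). Litters A to E each paired a WT and a KO brain of opposite sex, so the estimates of genotype and sex lean on the same within-litter contrasts.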

How the data were processed

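RNA-SEQ counts of 7 WT and 7 Capn15 KO mouse brains at P2 were analysed. The authors depleted ribosomal RNA, trimmed the reads with Trimmomatic, aligned them to GRCm38 with STAR and counted them per gene, and deposited the unnormalized counts of 17927 genes with 1 column for each brain, filtered by a rule not given in the sources used here. In the methods the kit is ScriptSeq, the instrument a HiSeq and the counter HTSeq-count, whereas the labels name a stranded TruSeq kit and the submitters' processing notes list featureCounts. No column of values was left unused (0 columns). Genotype and replicate came from the labels. The column names of the counts gave sex and the letter that was read as the litter. Gene positions, exons and overlaps came from GENCODE M21, in which 17909 of the genes were found, and promoters from RefSeq (GRCm38.p6).

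The 42 genes, their split into classes and the other gene lists were chosen with earlier results of these data known. Values named in full are those of 10 genes picked by name (Mki67, Top2a, Cdk1, Ccnb1, Plk4, Mcm2, Mcm5, Pcna, Ccne1 and E2f1), of the 5 genes with the smallest p for genotype and for sex, and of the 3 highest and 3 lowest per exon length. Genes named for their litter values were chosen after these were seen.

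Counts were fitted in R 4.3.3 with edgeR 4.0.16 (quasi-likelihood, TMM, genes with at least 1 count, terms for genotype, litter and sex), and p-values were adjusted by Benjamini-Hochberg over all genes with a threshold of 0.05. Litter was tested by an F test over its terms, and fitted litter values were centred over the 6 litters. Standard errors and 95% intervals follow from the F statistic. Single genes were also compared by two-sided exact permutation tests on log2 CPM (prior count 2), whose smallest possible p is 0.000583. Classes were described by counts and medians without a test. Alternatives used DESeq2 1.42.0, limma 3.58.1, other covariates and filters, a replicate block, and fits without single brains or litters. Python 3.11.15 with pandas 2.3.3, scipy 1.17.1 and numpy 2.4.6, and matplotlib 3.10.9 for figures, served for the rest. The fit was tested on simulated data with 200 of 17927 genes changed by 1 on the log2 scale, of which it recovered 200 for genotype with 14 false calls and 194 for litter with 24 false calls.

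Brains with the same replicate number came from 1 litter, so the numbers pair the samples. Over 15227 genes the deviations of the pairs from their genotype means correlated at 0.319, 0.416, 0.323, -0.467, -0.105, -0.0679 and 0.443 for replicates 1 to 7.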

Additional observations from a re-analysis of the deposited data

Results flagged for a closer look

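Capn15 in the library labelled WT replicate 7, at 18.7 CPM, lay far below the other 6 WT brains, of which the nearest was at 25 CPM, a gap that took 0.726 of the range of the group. Capn15 in the library labelled KO replicate 7, at 20.2 CPM, lay above the other 6 KO brains, of which the nearest was at 14.5 CPM, with a gap of 0.703 of the range. Both brains are of litter F. Of 86 groups of 7 brains examined, the 42 genes and Capn15 in each genotype, these 2 stood apart, against 4.3 that chance would give. No brain stood apart in this way for any of the 42 cell cycle genes.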

How the results depend on the processing

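None of the 42 genes was called between genotypes or sexes under any alternative run. The number of all genes called for genotype was 1, with 34 by the likelihood ratio test of edgeR, 17 by DESeq2, 2 with litter but no sex term, 0 with the replicate block in place of litter (the pairs of same-numbered brains), 7 without litter F, 0 without litter A and 0 without litter B. Leaving out each brain in turn gave 0 to 7. For sex it was 12, with 36 by the likelihood ratio test and 19 by DESeq2. The number of S-phase genes called between litters was 7, with 4 without the sex term, 4 without litter F, 3 without litter A and 0 without litter B. Leaving out each brain gave 2 (without WT replicate 2) to 8, with 3 or 4 without WT replicates 1, 3 or 7 or KO replicates 1, 3 or 4. The number of mitotic genes called between litters was 24, with 14 without litter A, 6 without litter B and 16 to 24 with each brain left out. Over all genes, leaving out each brain gave 3626 to 5770 called between litters. Without litter B 196 of all genes were called between litters. The settings without litter A and without litter B were chosen after seeing the data. The replicate block changed no other call, and the median log2 fold changes with it were -0.070 for S-phase and -0.034 for mitotic genes.

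Of 375 genotype estimates for 15 named genes over 25 alternatives, 350 kept their direction and 25, in 6 genes, did not; none of the 15 was past the threshold in any. Top2a was at 6.8e-05 with limma-voom, 0.0052 with genotype alone, 0.0075 without the sex term and 0.017 without litter F. Mki67 was at -0.0035 with genotype alone and Plk4 at 0.015 without litter F. Leaving out each brain gave -0.080 to 0.062 for Top2a, -0.013 to 0.036 for Mki67, -0.16 to 0.029 for Cdk1, -0.23 to 0.012 for Ccnb1, -0.049 to 0.015 for Plk4 and -0.15 to 0.014 for Mcm5. In Cdk1, Ccnb1 and Mcm5 the direction turned without a brain of litter C. In a litter of 2, leaving out 1 brain removes the litter from the genotype estimate. Every one of the 42 genes had at least 138 counts in each library. The cause of these shifts was not tested.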
